A study of Mus musculus with 18 samples.

Results

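The 34 genes described here encode structural proteins of the heart muscle sarcomere and of the Z-disc that borders it, together with proteins that anchor the Z-disc to the cell membrane and factors that assemble the filaments. They were listed by name and matched to the deposited table by Ensembl identifier, 34 of 30583 genes, and all 34 passed the filter on low counts that left 16311 genes for testing. By role they comprise 7 thick filament and M-band genes, 7 thin filament genes, 12 Z-disc genes, 5 genes of the costamere, the intermediate filament and the intercalated disc, and 3 assembly factors and kinases. Poly(A) RNA was sequenced from 18 male C57BL/6JR mice aged 12 weeks, in 6 groups of 3, with 1 library per mouse. In 5 groups the left anterior descending coronary artery was tied under sodium pentobarbital to produce a myocardial infarction, and the mice were killed under isoflurane after 10 min or after 1, 6, 24 or 72 h. The sham group (0 h) had the suture passed but not tied. No genotype or drug distinguished the groups. RNA came from the infarcted region of the left ventricle. The labels also give cardiomyocytes as the cell type, but no separation of cells is described, and transcripts of blood and connective tissue cells were present, so the libraries are treated as whole tissue. In whole tissue, fewer cardiomyocytes and less RNA per cardiomyocyte cannot be told apart.

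A sarcomere runs from Z-disc to Z-disc. Thin filaments of actin, regulated by tropomyosin and the troponin complex and capped at their free ends by tropomodulin, are crosslinked at the Z-disc by alpha-actinin, and thick filaments of myosin are held in register at the M-band and tied to the Z-disc by titin. The Z-disc also carries adaptor proteins of the LIM, PDZ-LIM and filamin families that sense stretch, and it is coupled to the membrane by the costamere, which holds vinculin and the dystrophin and sarcoglycan complex, and to its neighbours by desmin. When cardiomyocytes die after coronary occlusion, troponins leak into the blood, which is why cardiac troponin is used as a clinical marker of infarction.

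Libraries held 18.2 to 25.1 M counts, and levels below are TMM-scaled CPM (counts per M of library size) listed in the order of replicates 1, 2 and 3. Gene coordinates are those of the GRCm38 build. The 34 genes made up 8.66% ± 0.25 (SD, n = 3) of a sham library, 6.61% ± 1.29 of a 24 h library and 4.13% ± 0.48 of a 72 h library, and at 72 h their share was below that in every sham library. Sets of marker genes for other cells moved over the same time course. The summed level of 14 cardiomyocyte genes of calcium handling and metabolism ran from 37437 to 39119 CPM in sham, from 18302 to 28805 at 24 h and from 8886 to 12148 at 72 h. The summed level of 6 fibroblast markers ran from 755 to 857 CPM in sham and from 12237 to 15865 at 72 h, when 6 of 6 were called higher (Postn log2 fold change 6.21, Col1a1 5.58). All 5 macrophage markers (Adgre1 3.94, Cd68 4.78) and all 5 neutrophil markers (Csf3r 4.84, Mmp9 4.48) were called higher at 72 h. Of 5 endothelial markers 4 were lower (Kdr -1.22, Tie1 -0.74), and 5 of 5 red cell genes were lower (Hba-a1 -1.38, Hbb-bs -1.09). Smooth muscle and pericyte markers split, with 3 of 5 lower and 2 higher. The 2 of these with the smallest adjusted p, Kcnj8 (-1.65) and Rgs5 (-1.05), were both lower. On library totals the endothelial calls were 1 higher and 1 lower, and 1 red cell gene was lower. The 5 cardiomyocyte markers were all lower (Mb -2.03, Pln -2.18). The 5 skeletal muscle markers summed to at most 6.67 CPM in any library, with Mylpf at -1.22 and Tnnt3 at 3.43 on the log2 scale at 72 h. The part of these other cells in the results below was not tested.

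Some libraries stood apart. Replicate 1 at 6 h held atrial transcripts that the other libraries lacked: the atrial light chain gene Myl7 had 827 counts there, against 1 and 0 counts in the other 6 h libraries and at most 35 elsewhere, and its partner Myl4 had 992 counts there, against 41 and 30. The atrial peptide gene Nppa, called higher at 72 h (2.06), was at 391, 112 and 285 CPM in the 6 h libraries and at 206, 89.4 and 140.2 in sham. Neutrophil markers summed to 705, 252 and 94.9 CPM in the 6 h libraries and to 166, 42.6 and 706 CPM at 24 h, against 3.03 to 4.30 in sham, and libraries of the same group differed widely. The 6 h calls of the sarcomere and Z-disc genes described here are therefore given with and without replicate 1. Other results at 6 h, such as the ratios and the values of the other gene lists, include replicate 1 and were not tested without it. At 24 h, replicate 3 had the lowest level of cardiomyocyte genes and also the lowest level of most of the contractile genes described here.

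The windows before the annotated transcript starts were searched for letters bound by muscle transcription factors, to show which genes have them. RefSeq windows of 250 bases before a start (GRCm38.p6) were found for 31 of the 34 genes. Tcap, Myom2 and Nexn had no entry. The CArG box, the site bound by serum response factor, was present in either orientation in the windows of 7 genes, 22.6% of the 31, against 1.62% of 27025 genes with a window. The following lines give these sites, 5′ to 3′ on the gene's strand, with the CArG box in capitals. For Actc1, Myl3, Myom1 and Nebl, 4 of the 7, the site lies inside the span of the annotated gene, before a start downstream of the gene's outermost end.
Vcl, chr14:20929161-20929190, forward strand: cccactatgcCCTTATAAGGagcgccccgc
Dmd, chrX:82948762-82948791, forward strand: catgggcagtCCTATTATGGgaaagcaact
Actc1, chr2:114052903-114052932, reverse strand: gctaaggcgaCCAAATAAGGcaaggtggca
Myl3, chr9:110763583-110763612, forward strand: gagccaatgcCCTTTTATGGccctgtccct
Myom1, chr17:71019448-71019477, forward strand: gccttcctggCCATAAAAGGctggctgtgg
Ldb3, chr14:34588697-34588726, reverse strand: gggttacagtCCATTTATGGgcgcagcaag
Nebl, chr2:17462999-17463028, reverse strand: gctcccatctCCTAAATTGGctggaaatgc
A site for the myocyte enhancer factor MEF2 was present for 5 genes (16.1%, against 3.42% of all genes), shown here for 3 of them with the site in capitals.
Synpo2l, chr14:20668444-20668473, reverse strand: gaaatttgtaCTATAATTAGttctaggagt
Ttn, chr2:76982694-76982723, reverse strand: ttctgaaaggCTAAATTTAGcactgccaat
Mybpc3, chr2:91118044-91118073, forward strand: tggaatttgtCTATATTTAGcaggtggcta
The 9 genes that were called higher at some time, all of which had a window, included 2 with a CArG box (Vcl and Dmd) and 2 with a MEF2 site (Synpo2l and Dmd), while the other 22 included 5 and 3. The letters CATTCC, bound by TEAD factors, were present on either strand for 12 genes (38.7%, against 14.4% of all genes), among them Flnc, Pdlim3 and Vcl. TGANTCA, bound by AP-1, was present for 2 genes (6.45%, against 7.82%), and AGATAA, bound by GATA factors, for 6 (19.4%, against 11.4%), none of them among the 9. The overlap of these matches with one another was not counted, and a match describes letters in a window and not a bound site. The whole window of Vcl, chr14:20929148-20929397 on the forward strand, is shown because it holds both a CArG box and a CATTCC match on the opposite strand, each in capitals.
Vcl: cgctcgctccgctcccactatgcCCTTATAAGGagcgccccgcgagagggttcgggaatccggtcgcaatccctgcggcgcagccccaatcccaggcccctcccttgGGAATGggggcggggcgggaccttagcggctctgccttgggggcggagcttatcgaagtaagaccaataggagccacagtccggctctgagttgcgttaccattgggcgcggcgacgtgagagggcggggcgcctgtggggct

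Most calls among the 34 genes were higher at 6 h and lower at 24 and 72 h, and the map of all libraries shows the levels. The shares called higher at 6 and 24 h were not far from those of all genes, given below. At 10 min and at 1 h after ligation, 0 of 34 were called by edgeR's quasi-likelihood test at an adjusted p under 0.05, where 0.0736% (0.0307% higher, 0.0429% lower) and 0.294% of all genes tested were called. At an unadjusted p under 0.05 there were 1 and 2. At 6 h, 8 genes were called, 7 higher and 1 lower (28.4% of all genes, 16.3% higher and 12.2% lower). At 24 h the number was 27, with 7 higher and 20 lower (43.8% of all genes, 23.7% higher and 20.2% lower). At 72 h it was 29, with 1 higher and 28 lower (66.4% of all genes, 34.2% higher and 32.2% lower). For these 3 times the median log2 fold change of the 34 was 0.00, -0.38 and -1.39, beside -0.01, 0.01 and 0.03 over all genes tested. All 3 libraries lay beyond all 3 sham libraries for 7 genes above and 7 below at 6 h (23.1% and 21.2% of all genes), 7 and 20 at 24 h (28% and 25.7%), and 1 and 30 at 72 h (39.3% and 36.5%). Over all times, 34 of 34 passed the F test, as did 78.4% of all genes. The comparisons with sham share the 3 sham libraries, so their values are not independent of one another.

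**Figure D1:**
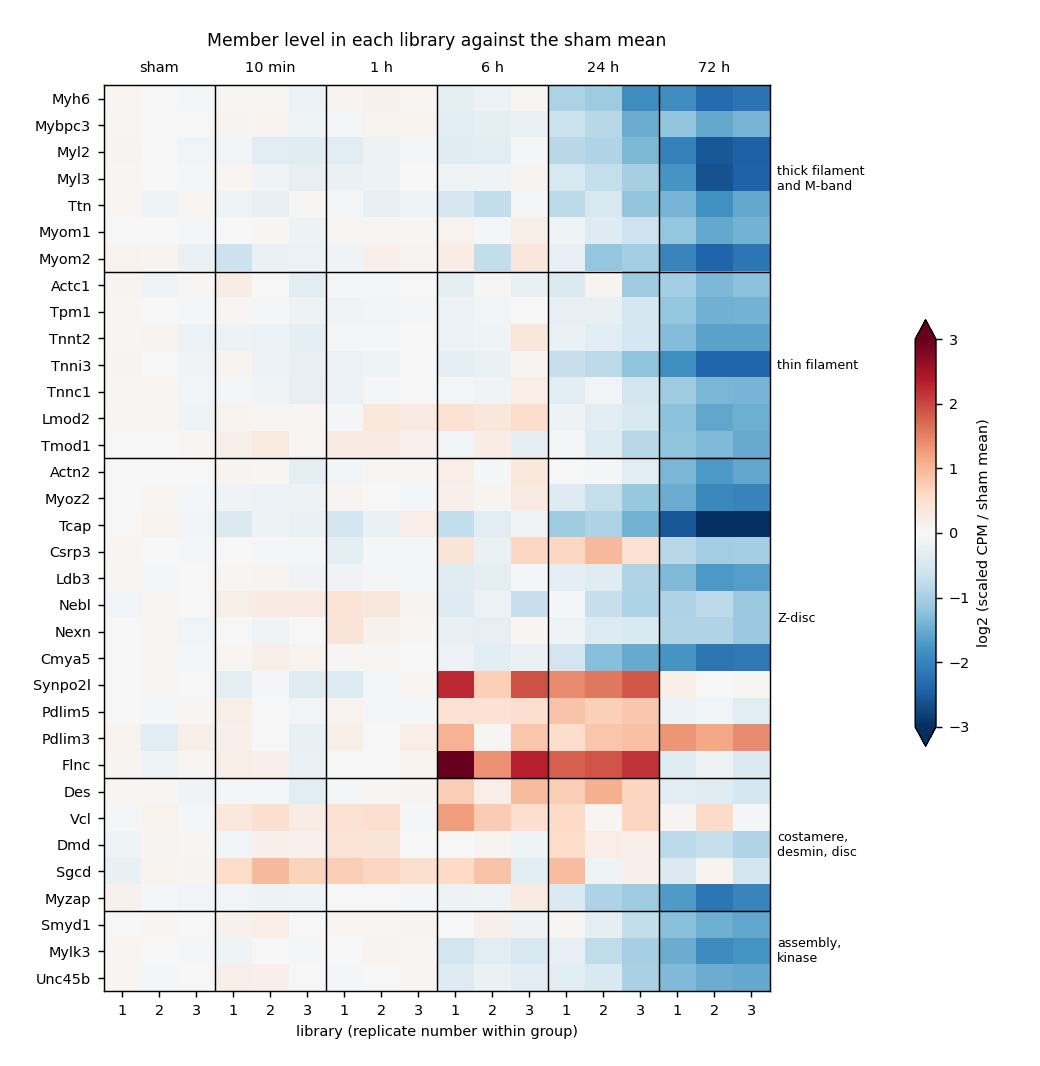
Level of each of the 34 genes in each of the 18 libraries, as log2 of scaled CPM over the sham mean, with rows grouped by role and columns by time after ligation (colour scale stops at 3 in either direction). The Z-disc and costamere rows hold the genes with higher levels at 6 and 24 h, among them Flnc and Synpo2l, and at 72 h all rows of the thick and thin filaments are below sham.

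The order of calls at 6, 24 and 72 h sorted the genes. Called lower at 24 and 72 h and not at 6 h were 18 genes, and called lower at 72 h without a call at 6 or 24 h were 5 (Actc1, Tnnt2, Tnnc1, Actn2 and Smyd1). All 5 were also called lower at 72 h than at 24 h. Mylk3 was called lower at all 3 times. Pdlim3 was called higher at all 3 times. Called higher at 6 and 24 h were also Synpo2l, Pdlim5, Flnc and Des, of which Des was called lower at 72 h. Lmod2 was called higher at 6 h and lower afterwards, Csrp3 and Dmd higher at 24 h and lower at 72 h, and Vcl higher at 6 h alone. Sgcd was not called at any single time. Between consecutive times, 0 genes were called from 10 min to 1 h (0.307% of all genes), 7 from 1 to 6 h (24.5%), 13 from 6 to 24 h (27.8%) and 31 from 24 to 72 h (50.5%, of which 24.4% higher and 26.1% lower). From 1 to 6 h, Synpo2l, Pdlim5, Pdlim3, Flnc and Des rose while Nebl and Mylk3 fell. From 6 to 24 h, Pdlim5 rose and 12 genes fell: Myh6, Mybpc3, Myl2, Myl3, Myom1, Myom2, Tnni3, Lmod2, Myoz2, Tcap, Cmya5 and Myzap. Without 6 h replicate 1, 5 genes were called from 1 to 6 h, 4 higher and 1 lower. In that fit 13 were called from 6 to 24 h, 1 higher and 12 lower, and its share of all genes was not counted. From 24 to 72 h, Pdlim3 rose, 30 genes fell, and Nebl, Vcl and Sgcd were not called.

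The scaling of the libraries bears on the size of these changes. With library totals in place of TMM factors, the median over all genes tested moved to -0.12, 0.20 and 0.61 on the log2 scale for 6, 24 and 72 h, and that of the 34 genes to -0.11, -0.19 and -0.80. On that scale the calls at 6 h were 7 higher and 4 lower (28.9% of all genes, 11.7% higher and 17.2% lower). For 24 h they were 8 and 12 (45.1%, 34.1% and 11.1%), and for 72 h 4 and 25 (72.7%, 58.1% and 14.6%). Pdlim5, Flnc and Des, below sham at 72 h after TMM scaling, were above it on library totals, with log2 fold changes of 0.39, 0.28 and 0.18, and of these Pdlim5 was called (edgeR adjusted p = 9.6e-04). Without replicate 1 at 6 h, 6 of the 34 genes were called at 6 h, all higher, and the share of all genes called in that fit was not counted. Those 6 were Flnc (log2 fold change 1.93), Synpo2l (1.43), Vcl (0.63), Des (0.63), Pdlim5 (0.47) and Lmod2 (0.43), and Pdlim3 and Mylk3 lost their calls.

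All 7 thick filament genes fell by 24 h, with a median log2 fold change of -0.79, and by 72 h the median was -2.12 and again 7 of 7 were called lower. On library totals Myom1 and Myom2 were not called at 24 h. At 6 h 0 of 7 were called. Ttn was at -0.40 then, and was called lower on library totals (-0.51, adjusted p = 0.045 by edgeR), in limma on log2(FPKM + 1) (-0.50, adjusted p = 0.047), and without 6 h replicate 3 (-0.62, adjusted p = 0.017 by edgeR) or 24 h replicate 3 (-0.40, adjusted p = 0.048). The largest fall was that of Myl2 (ENSMUSG00000013936, chr5:122100951-122113472, forward strand), which encodes the ventricular regulatory light chain of myosin. Its level was 8732, 8282 and 7825 CPM in sham, 6388, 6621 and 8048 at 6 h, 4686, 4431 and 3230.3 at 24 h and 2044, 1417 and 1505 at 72 h. Every 24 h and 72 h library was below every sham library, and the 6 h group overlapped sham. Myl2 fell by 24 h (log2 fold change -1.01 ± 0.17 SE, adjusted p = 1.4e-04 by edgeR) and was 5.00-fold lower than sham at 72 h (log2 fold change -2.32 ± 0.17 SE, adjusted p = 2.2e-09 by edgeR). The smallest fall at 72 h was that of Myom1 (ENSMUSG00000024049, chr17:71002633-71126856, forward strand), which encodes myomesin, a crosslinker of the M-band. Its level was 1169, 1177 and 1137 CPM in sham, 1055, 887 and 749.8 at 24 h and 523, 402 and 437 at 72 h, with no overlap between the groups. The change was 1.29-fold lower at 24 h (log2 fold change -0.37 ± 0.12 SE, adjusted p = 0.02 by edgeR) and 2.56-fold lower at 72 h (log2 fold change -1.36 ± 0.12 SE, adjusted p = 2.7e-08 by edgeR). The call at 24 h was lost without sham replicate 1 or 2 (edgeR adjusted p = 0.054 and 0.055) or 24 h replicate 3 (0.10), and on library totals.

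The other thick filament genes lay between these. Myh6, the alpha myosin heavy chain that is the main motor of the adult mouse ventricle, was at 23507 ± 1004 CPM in sham (SD, n = 3), 21515 ± 2396 at 6 h, 9989 ± 3062 at 24 h and 5409 ± 909 at 72 h. It was 2.35-fold lower than sham at 24 h and 4.35-fold lower at 72 h (log2 fold change -2.12 ± 0.19 SE, adjusted p = 2.6e-08 by edgeR). At 24 h its libraries stood at 12169, 11310.4 and 6489 CPM, so replicate 3 was far below the other two, and all 3 were below sham. Myl3, the ventricular essential light chain, had log2 fold changes of -0.71 at 24 h and -2.22 at 72 h. Myom2, a second myomesin, was at -0.75 and -2.18, and its 6 h libraries spread from 783 to 1654 CPM. Mybpc3, the cardiac myosin-binding protein C, was at -0.95 and -1.37, and Ttn, the giant spring titin, at -0.79 and -1.57. All of these falls were called. Myom2 at 24 h lost its call without any of 4 libraries (sham replicates 1 and 2, 24 h replicates 2 and 3, edgeR adjusted p = 0.064 to 0.11). Its 24 h call was also lost on library totals (log2 fold change -0.57, edgeR adjusted p = 0.061) and with no filter on low counts (edgeR adjusted p = 0.084). In limma on log2(FPKM + 1) it was lost too (adjusted p = 0.053).

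Of the 7 thin filament genes, 4 were called lower at 24 h with a median log2 fold change of -0.34 (1, Tnni3, on library totals), and 7 at 72 h with a median of -1.35. The largest fall was that of Tnni3 (ENSMUSG00000035458, chr7:4518305-4524229, reverse strand), the cardiac inhibitory troponin. Its level was 4639, 4347 and 4069 CPM in sham, 3591, 3789.8 and 4571 at 6 h, 2677, 2545 and 1898 at 24 h and 1221, 843 and 832 at 72 h. Sham and 6 h overlapped, and each later group was below both. Tnni3 was 1.83-fold lower at 24 h (log2 fold change -0.87 ± 0.16 SE, adjusted p = 3.9e-04 by edgeR) and 4.51-fold lower at 72 h (log2 fold change -2.17 ± 0.17 SE, adjusted p = 3.7e-09 by edgeR). The smallest fall at 72 h was that of Actc1 (ENSMUSG00000068614, chr2:114047282-114053548, reverse strand), the cardiac alpha-actin. It stood at 10436, 8967 and 10189.8 CPM in sham, 7307, 10378 and 4731 at 24 h and 4882, 3889 and 4192 at 72 h. Replicate 2 at 24 h lay within the sham range and the other replicates below it, and only the 72 h group was apart from sham. Actc1 was 2.28-fold lower at 72 h (log2 fold change -1.19 ± 0.21 SE, adjusted p = 6.4e-05 by edgeR) and was not called at 24 h (log2 fold change -0.40 with adjusted p = 0.13 by edgeR), though without 24 h replicate 2 the value was -0.71 (adjusted p = 0.0066 by edgeR).

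Lmod2 (ENSMUSG00000029683, chr6:24597762-24605414, forward strand), a leiomodin that lengthens thin filaments at their pointed ends, was the thin filament gene that moved in both directions. It stood at 513, 518 and 449 CPM in sham, 673, 620.2 and 706 at 6 h, 446, 389 and 359.5 at 24 h and 210.2, 168 and 179 at 72 h. The 6 h libraries were all above sham and the later ones all below. Lmod2 was 1.35-fold higher at 6 h (log2 fold change 0.43 ± 0.12 SE, adjusted p = 0.0097 by edgeR), 1.24-fold lower at 24 h (log2 fold change -0.31 ± 0.12 SE, adjusted p = 0.039 by edgeR) and 2.65-fold lower at 72 h (log2 fold change -1.41 ± 0.12 SE, adjusted p = 9.9e-09 by edgeR). The 6 h call was lost without sham replicate 3 (edgeR adjusted p = 0.057). The 24 h call was lost without sham replicate 1 or 2 or 24 h replicate 2 or 3 (edgeR adjusted p = 0.092 to 0.15) and on library totals. Tnnt2, the tropomyosin-binding troponin, Tnnc1, the calcium-binding troponin, Tpm1, the main cardiac tropomyosin, and Tmod1, the pointed-end cap tropomodulin, were close together at 72 h, with log2 fold changes of -1.49, -1.27, -1.33 and -1.35. At 24 h Tpm1 and Tmod1 were called lower (-0.33 and -0.39) and Tnnt2 and Tnnc1 were not (-0.34 and -0.31). DESeq2 called these last 2 lower at 24 h (adjusted p = 0.034 and 0.037), and edgeR did so for Tnnt2 without 24 h replicate 1 or 6 h replicate 3 (adjusted p = 0.036 and 0.039) and for Tnnc1 without 24 h replicate 2 or 72 h replicate 1 (0.017 and 0.046). On library totals Tpm1 and Tmod1 were at -0.13 and -0.21 and not called. The 24 h call of Tmod1 did not hold in 11 of 18 fits without 1 library, and that of Tpm1 in 4 (edgeR adjusted p of at most 0.23 and 0.14).

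**Figure D2:**
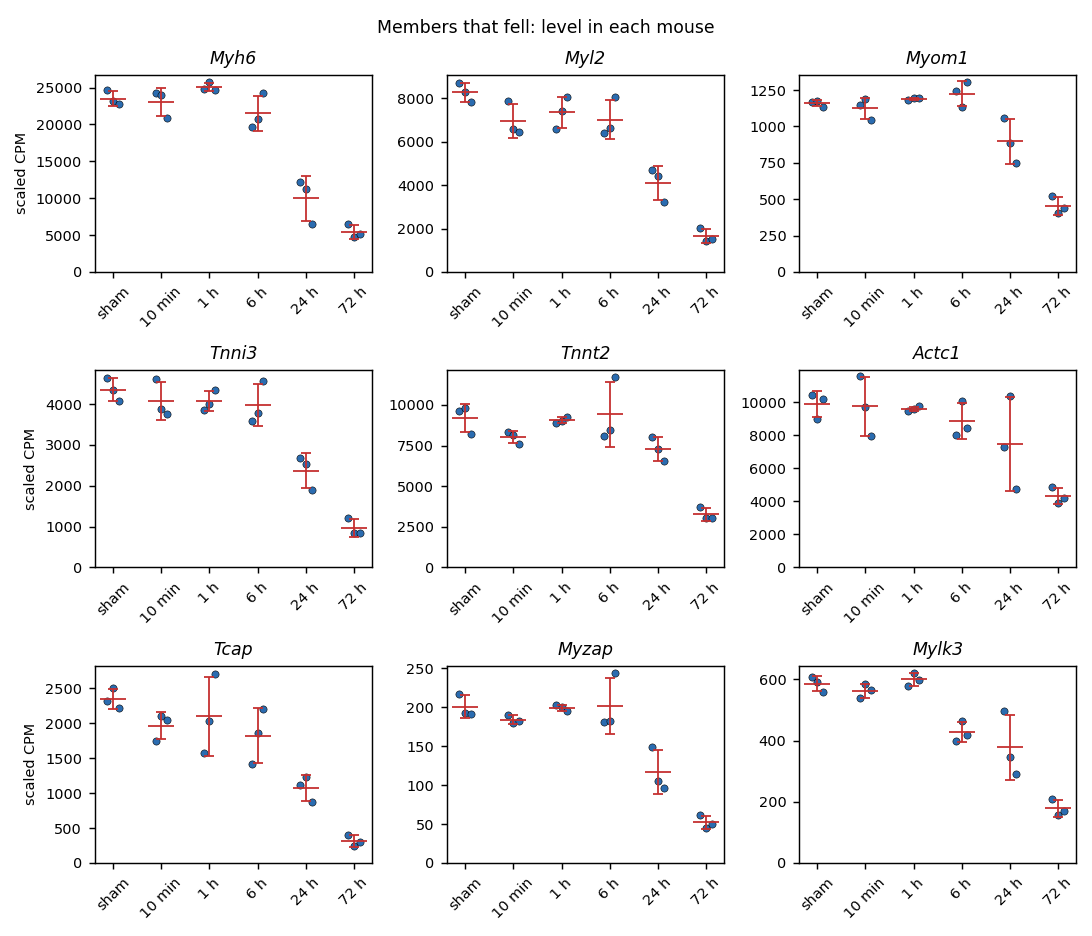
Level in scaled CPM of 9 genes with a fall, 1 panel per gene, with 1 point per mouse and red bars for the mean and SD of 3 mice at each time after ligation. Myh6, Myl2, Tnni3, Tcap and Myzap are below sham at 24 and 72 h, and the 72 h points of Tnnt2 and Actc1 are also below all sham points.

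The Z-disc genes split. At 6 h 4 of 12 were called, all higher. At 24 h 11 were called, 5 higher and 6 lower, with a median log2 fold change of -0.22, and at 72 h 9 were called, 1 higher and 8 lower, with a median of -0.97. On library totals the 72 h calls were 3 higher and 7 lower. The largest fall among all 34 genes was that of Tcap (ENSMUSG00000007877, chr11:98383811-98384953, forward strand), which encodes telethonin, the cap that joins the ends of titin at the Z-disc. Its level was 2321, 2509 and 2215 CPM in sham, 1418, 1858 and 2199 at 6 h, 1113, 1229 and 877 at 24 h and 406, 239 and 296 at 72 h. The 6 h libraries were all below sham by a margin smaller than their own spread, and the 24 and 72 h libraries were far below. Tcap was 2.19-fold lower at 24 h (log2 fold change -1.13 ± 0.21 SE, adjusted p = 4.2e-04 by edgeR) and 7.49-fold lower at 72 h (log2 fold change -2.91 ± 0.22 SE, adjusted p = 4.3e-09 by edgeR), and was not called at 6 h (log2 fold change -0.36 with adjusted p = 0.21 by edgeR).

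Of the other Z-disc genes that were lower at 72 h and never higher, Cmya5 (myospryn, a large anchoring protein) was at -2.02 on the log2 scale, Myoz2 (calsarcin, which binds calcineurin) at -1.80, Ldb3 (the PDZ-LIM protein Cypher) at -1.56 and Actn2 (alpha-actinin, the crosslinker of actin at the Z-disc) at -1.54. Nexn (nexilin, an actin-binding protein) was at -0.97 and Nebl (nebulette, which binds actin and the Z-disc) at -0.93. All 6 were called lower at 72 h. Actn2 was not called at 24 h (1344, 1309.6 and 1069.9 CPM against 1370.1, 1340.4 and 1335 in sham, log2 fold change -0.12, edgeR adjusted p = 0.47), whereas Cmya5 (-1.06), Myoz2 (-0.71), Ldb3 (-0.49), Nebl (-0.51) and Nexn (-0.32) were called lower then. On library totals the 24 h calls of Ldb3, Nebl and Nexn were lost. So were those of Nebl and Nexn without 24 h replicate 2 or 3 or sham replicate 2 or 3 (edgeR adjusted p = 0.054 to 0.14), that of Nexn without sham replicate 1 (0.09), and that of Nebl at 72 h on library totals (log2 fold change -0.35).

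Of the adaptor genes of the Z-disc, 5 rose at 6 or 24 h. Flnc (ENSMUSG00000068699, chr6:29433256-29461883, forward strand) encodes filamin C, a muscle filamin of the Z-disc. Its level was 323, 280.1 and 309 CPM in sham, 306, 309 and 328 at 1 h, 2668, 781 and 1543 at 6 h, 1062, 1117 and 1369.5 at 24 h and 235, 276 and 225 at 72 h. All 6 libraries at 6 and 24 h were above every sham library, replicate 2 at 6 h was the lowest of them and replicate 1 the highest, and the 72 h libraries were slightly below sham. Flnc was 5.47-fold higher at 6 h (log2 fold change 2.45 ± 0.30 SE, adjusted p = 4.2e-05 by edgeR) and 3.89-fold higher at 24 h (log2 fold change 1.96 ± 0.29 SE, adjusted p = 1.1e-04 by edgeR), and was not called at 72 h (log2 fold change -0.31 with adjusted p = 0.35 by edgeR). Synpo2l (ENSMUSG00000039376, chr14:20658946-20668354, reverse strand), a cytoskeletal partner of filamin and alpha-actinin, had a similar course. It stood at 146, 151 and 145 CPM in sham, 110.1, 145 and 153 at 1 h, 689.7, 241 and 553 at 6 h, 390.4, 439 and 538 at 24 h and 167, 148 and 151 at 72 h. As for Flnc, the 6 h group was apart from sham with its lowest value in replicate 2, and the 72 h group overlapped sham. Synpo2l was 3.36-fold higher at 6 h (log2 fold change 1.75 ± 0.27 SE, adjusted p = 2.4e-04 by edgeR) and 3.10-fold higher at 24 h (log2 fold change 1.63 ± 0.26 SE, adjusted p = 2.2e-04 by edgeR).

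Pdlim5 (ENSMUSG00000028273, chr3:142239590-142395696, reverse strand), a PDZ-LIM adaptor of alpha-actinin, rose with little spread. It stood at 574, 567 and 589.8 CPM in sham, 777, 782 and 813 at 6 h, 1043, 951 and 1005 at 24 h and 509, 541 and 458 at 72 h. The 6 h group was above sham, the 24 h group above both, and the 72 h group just below sham. Pdlim5 was 1.37-fold higher at 6 h (log2 fold change 0.45 ± 0.10 SE, adjusted p = 0.0019 by edgeR) and 1.73-fold higher at 24 h (log2 fold change 0.79 ± 0.10 SE, adjusted p = 8.6e-06 by edgeR), and the step from 6 to 24 h was itself called (edgeR adjusted p = 0.013), though not in a fit to those 6 libraries alone. At 72 h it was not called (log2 fold change -0.20, edgeR adjusted p = 0.075), a value that changed sign on library totals as given above and that was called lower without 72 h replicate 2 (-0.26, adjusted p = 0.045 by edgeR). Its relative Pdlim3 (ENSMUSG00000031636, chr8:45885461-45919548, forward strand), another PDZ-LIM adaptor, was the single gene of the 34 called higher at 72 h after TMM scaling. On library totals the 4 genes called higher at 72 h were Pdlim3, Pdlim5, Synpo2l and Vcl. Pdlim3 stood at 16.6, 12.2 and 17.4 CPM in sham, 31.6, 15.9 and 27.2 at 6 h, 22.1, 27.4 and 28.3 at 24 h and 38.5, 34.5 and 41.4 at 72 h. The 6 h group overlapped sham, and the 24 and 72 h groups were above it. Pdlim3 was 1.61-fold higher at 6 h (log2 fold change 0.69 ± 0.20 SE, adjusted p = 0.015 by edgeR), 1.68-fold at 24 h (log2 fold change 0.75 ± 0.20 SE, adjusted p = 0.0052 by edgeR) and 2.47-fold at 72 h (log2 fold change 1.31 ± 0.19 SE, adjusted p = 1.3e-05 by edgeR). The 6 h call was lost without sham replicate 2 (log2 fold change 0.55), 6 h replicate 1 (0.48) or 6 h replicate 3 (0.62), with edgeR adjusted p = 0.072, 0.099 and 0.0502.

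Csrp3 (ENSMUSG00000030470, chr7:48830398-48848033, reverse strand), the muscle LIM protein, which shuttles between the Z-disc and the nucleus, rose and then fell. Its level was 1319, 1258 and 1239 CPM in sham, 1659, 1104 and 1946 at 6 h, 1951, 2500.4 and 1740.3 at 24 h and 712, 620.2 and 627 at 72 h. Replicate 2 at 6 h was below sham and the other replicates above, the 24 h group was above sham and the 72 h group below. Csrp3 was 1.62-fold higher at 24 h (log2 fold change 0.70 ± 0.16 SE, adjusted p = 0.0024 by edgeR) and 1.95-fold lower at 72 h (log2 fold change -0.96 ± 0.17 SE, adjusted p = 5.1e-05 by edgeR). At 6 h it was not called (log2 fold change 0.30, edgeR adjusted p = 0.18), and without 6 h replicate 2 it was (0.50, adjusted p = 0.015). In limma on log2(FPKM + 1), the 72 h value was -0.38 and not called.

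**Figure D3:**
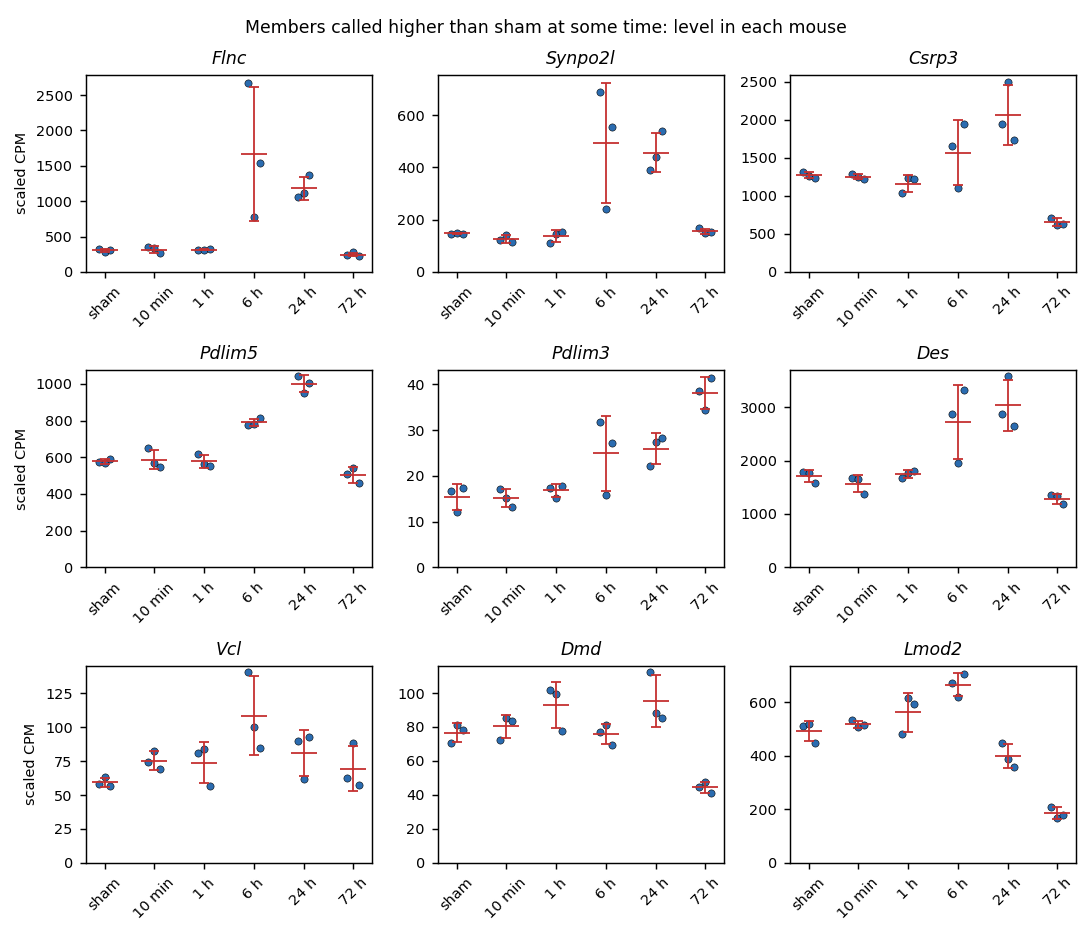
Level in scaled CPM of 9 genes that were called higher at some time, 1 panel per gene, with 1 point per mouse and red bars for the mean and SD of 3 mice at each time. Flnc, Synpo2l, Pdlim5 and Des are high at 6 and 24 h and back near or below sham at 72 h, while Pdlim3 is highest at 72 h. The 6 h points of Flnc spread from 781 to 2668 CPM.

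Among the genes that couple the sarcomere to the membrane and to neighbouring structures, 2 of 5 were called higher at 6 h, 2 higher and 1 lower at 24 h, and 3 lower at 72 h (1 higher and 1 lower on library totals). Vcl (ENSMUSG00000021823, chr14:20929398-21033676, forward strand) encodes vinculin, which anchors actin at costameres and intercalated discs. It stood at 57.9, 63.4 and 56.7 CPM in sham, 74.2, 82.7 and 69.0 at 10 min, 80.9, 83.9 and 56.8 at 1 h, 141, 99.9 and 84.3 at 6 h, 89.4, 61.7 and 92.4 at 24 h and 62.5, 88.6 and 57.2 at 72 h. The 10 min and 6 h libraries were all above sham, and the other groups overlapped it. Vcl was 1.83-fold higher at 6 h (log2 fold change 0.87 ± 0.21 SE, adjusted p = 0.0058 by edgeR), and its values at 24 h (0.45, edgeR adjusted p = 0.09) and 72 h (0.23, edgeR adjusted p = 0.35) were not called. On library totals both were called higher (log2 fold changes 0.64 and 0.81), and without 24 h replicate 2 so was the 24 h value (0.62). Des (ENSMUSG00000026208, chr1:75360329-75368579, forward strand) encodes desmin, the intermediate filament of muscle. Its level was 1785, 1761 and 1583 CPM in sham, 2868, 1959 and 3316 at 6 h, 2874, 3574 and 2652 at 24 h and 1347, 1334 and 1178 at 72 h. The 6 and 24 h libraries were all above sham and the 72 h libraries all below. Des was 1.59-fold higher at 6 h (log2 fold change 0.67 ± 0.16 SE, adjusted p = 0.0045 by edgeR), 1.77-fold higher at 24 h (log2 fold change 0.83 ± 0.16 SE, adjusted p = 5.1e-04 by edgeR) and 1.33-fold lower at 72 h (log2 fold change -0.41 ± 0.16 SE, adjusted p = 0.029 by edgeR). The 72 h call was lost without sham replicate 1 or 2 or 72 h replicate 3 (edgeR adjusted p = 0.078, 0.069 and 0.10), and its direction turned on library totals.

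Dmd (ENSMUSG00000045103, chrX:82948870-85206141, forward strand), which encodes dystrophin, stood at 70.3, 81.1 and 78.2 CPM in sham, 113, 88 and 85.3 at 24 h and 44.6, 47.7 and 41.3 at 72 h. The 24 h libraries were just above sham and the 72 h libraries well below it. Dmd was 1.25-fold higher at 24 h (log2 fold change 0.32 ± 0.12 SE, adjusted p = 0.041 by edgeR) and 1.72-fold lower at 72 h (log2 fold change -0.78 ± 0.12 SE, adjusted p = 1.7e-05 by edgeR). The 24 h call was lost without any of the 3 sham libraries, 24 h replicate 1 or 10 min replicate 3 (log2 fold change 0.19 to 0.36, edgeR adjusted p = 0.0501 to 0.20), and the 72 h call was lost on library totals (-0.20). Sgcd, the delta subunit of the sarcoglycan complex, was the lowest of the 34 genes per kilobase in sham and had no call at a single time. It stood at 11.3, 14.3 and 14.1 CPM in sham, 19.4, 25.7 and 20.9 at 10 min, 21.9, 20.8 and 18.5 at 1 h, 20.1, 23.7 and 10.4 at 6 h, 25, 12.0 and 14.7 at 24 h and 9.78, 14.2 and 9.07 at 72 h. Its 10 min and 1 h libraries were all above sham, and it had the largest departure of the 34 at 10 min (log2 fold change 0.74 with adjusted p = 0.61 by edgeR) and at 1 h (0.63, adjusted p = 0.89). At 6 h it was at 0.45, and without 6 h replicate 3 at 0.73, which was called (adjusted p = 0.045 by edgeR). At 10 min 5 genes lay wholly above sham and 4 wholly below (11% and 9.07% of all genes), and at 1 h 5 and 2 (8.25% and 8.66%), so such separations were about as frequent among all genes. Between 10 min and 1 h, 7 genes lay wholly above and 1 below (7.56% and 9.28%). Myzap (ENSMUSG00000041361, chr9:71504347-71592360, reverse strand), an intercalated disc protein also called myozap, stood at 218, 193 and 191 CPM in sham, 181, 182 and 244 at 6 h, 149, 105 and 96.3 at 24 h and 61.4, 44.9 and 50.6 at 72 h. It overlapped sham at 6 h and was below it afterwards, 1.72-fold at 24 h (log2 fold change -0.78 ± 0.15 SE, adjusted p = 4.9e-04 by edgeR) and 3.84-fold at 72 h (log2 fold change -1.94 ± 0.15 SE, adjusted p = 4.9e-09 by edgeR).

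All 3 assembly factors and kinases were called lower at 72 h, with a median log2 fold change of -1.45. Mylk3 (ENSMUSG00000031698, chr8:85324303-85386345, reverse strand) encodes the cardiac kinase that phosphorylates the regulatory light chain. In the TMM-scaled fit to all 18 libraries it was the single gene of the 34 called lower at 6 h. It stood at 607, 592 and 558 CPM in sham, 399.9, 463 and 419.9 at 6 h, 496, 347 and 292 at 24 h and 208, 157 and 169 at 72 h. Each of these groups was below sham without overlap. Mylk3 was 1.37-fold lower at 6 h (log2 fold change -0.45 ± 0.15 SE, adjusted p = 0.028 by edgeR), 1.55-fold at 24 h (log2 fold change -0.63 ± 0.15 SE, adjusted p = 0.0022 by edgeR) and 3.29-fold at 72 h (log2 fold change -1.72 ± 0.15 SE, adjusted p = 1.6e-08 by edgeR). The 6 h call was lost without sham replicate 1 or 2 or 6 h replicate 1 or 3 (log2 fold change -0.41 to -0.45, edgeR adjusted p = 0.067 to 0.11). Smyd1 (ENSMUSG00000055027, chr6:71213940-71322233, reverse strand), a methyltransferase that aids myosin assembly, stood at 519, 537 and 525 CPM in sham, 536, 440.2 and 314 at 24 h and 221, 191 and 178 at 72 h. Replicate 1 at 24 h was level with sham and replicate 3 far below it, so that group overlapped sham, while the 72 h group did not. Smyd1 was 2.68-fold lower at 72 h (log2 fold change -1.42 ± 0.15 SE, adjusted p = 1.1e-07 by edgeR) and was not called at 24 h (log2 fold change -0.29 with adjusted p = 0.11 by edgeR). Without 24 h replicate 1 the 24 h value was -0.47 and called (adjusted p = 0.0065 by edgeR). Unc45b, the myosin chaperone of striated muscle, was called lower at 24 and 72 h, with log2 fold changes of -0.56 and -1.45. On library totals Unc45b (-0.41) and Nebl (-0.51) were also called lower at 6 h (edgeR adjusted p = 0.018 and 0.027), as was Ttn. Both limma fits and the fit to only the 6 libraries compared called Unc45b and Nebl lower at 6 h too. The fit to those 6 libraries also called Mybpc3 lower (-0.26, edgeR adjusted p = 0.023).

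Because cardiomyocyte transcripts as a whole took a smaller share of the later libraries, the 34 genes were also set against the summed counts of 14 cardiomyocyte genes of calcium handling, energy metabolism and oxygen binding. Those genes fell in the scaled data themselves: 13 of 14 were lower at 72 h with a median of -2.03 (Hrc -2.57, Cox7a1 -2.63), and the exchanger gene Slc8a1 was not called (0.27). Relative to them, 29 of the 34 genes were called at 72 h, 25 higher and 4 lower (91.6% of all genes, 90.8% higher and 0.797% lower). The median of all genes on this scale was 1.98. The 4 lower were Tcap (log2 difference -0.98), Myl2 (-0.39), Myl3 (-0.31) and Tnni3 (-0.25). The Myl3 call was lost without 72 h replicate 2 (edgeR adjusted p = 0.073). The Tnni3 call was lost without sham replicate 1 or 2 or 72 h replicate 2 or 3, and with the median of log ratios over the reference genes (edgeR adjusted p = 0.053 to 0.12). Myh6, Myom2, Cmya5, Myzap and Myoz2 were not called. The highest were Pdlim3 (3.26), Vcl (2.20), Synpo2l (2.03), Pdlim5 (1.76), Sgcd (1.70), Flnc (1.66) and Des (1.54). Of the 7 thin filament genes 6 were also higher, such as Actc1 (0.75) and Tpm1 (0.61), whose falls were smaller than that of the reference genes. The higher calls of Mylk3 (0.22) and Ttn (0.38) did not hold in 10 and 4 alternative fits. Among those fits for both genes was the reference list without Mb, Ckm and Fabp3.

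At 24 h on the same relative scale 22 genes were called, 19 higher and 3 lower (69.7% of all genes, 67.5% higher and 2.21% lower). The 3 lower were Myh6 (-0.50), Cmya5 (-0.34) and Myl2 (-0.25). The Cmya5 call was lost without 24 h replicate 2 (edgeR adjusted p = 0.056). The Myl2 call was lost without any 1 of the sham libraries or 24 h replicate 1 or 3, and with the reference list without Mb, Ckm and Fabp3 (edgeR adjusted p = 0.058 to 0.12). The highest were Flnc (2.78), Synpo2l (2.46), Des (1.61) and Pdlim5 (1.58). Of the higher calls, that of Ldb3 was lost without any 1 of the sham libraries or 24 h replicate 2. That of Tmod1 was lost without sham replicate 1 or 2 or 24 h replicate 2. At 6 h 7 genes were called, 6 higher and 1 lower (15.3% of all genes, 8.88% higher and 6.42% lower). They were Flnc (2.50), Synpo2l (1.79), Vcl (0.91), Des (0.69), Pdlim5 (0.48), Lmod2 (0.46) and, lower, Mylk3 (-0.43). Without 6 h replicate 1, Flnc (1.90), Synpo2l (1.40) and Mylk3 (-0.43) kept their calls on this scale and the other 4 lost them, and without sham replicate 3 the count was 4. The Vcl and Pdlim5 calls were also lost without any 1 of the sham libraries (edgeR adjusted p = 0.054 to 0.087), and that of Lmod2 without sham replicate 3 (0.068).

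**Figure D4:**
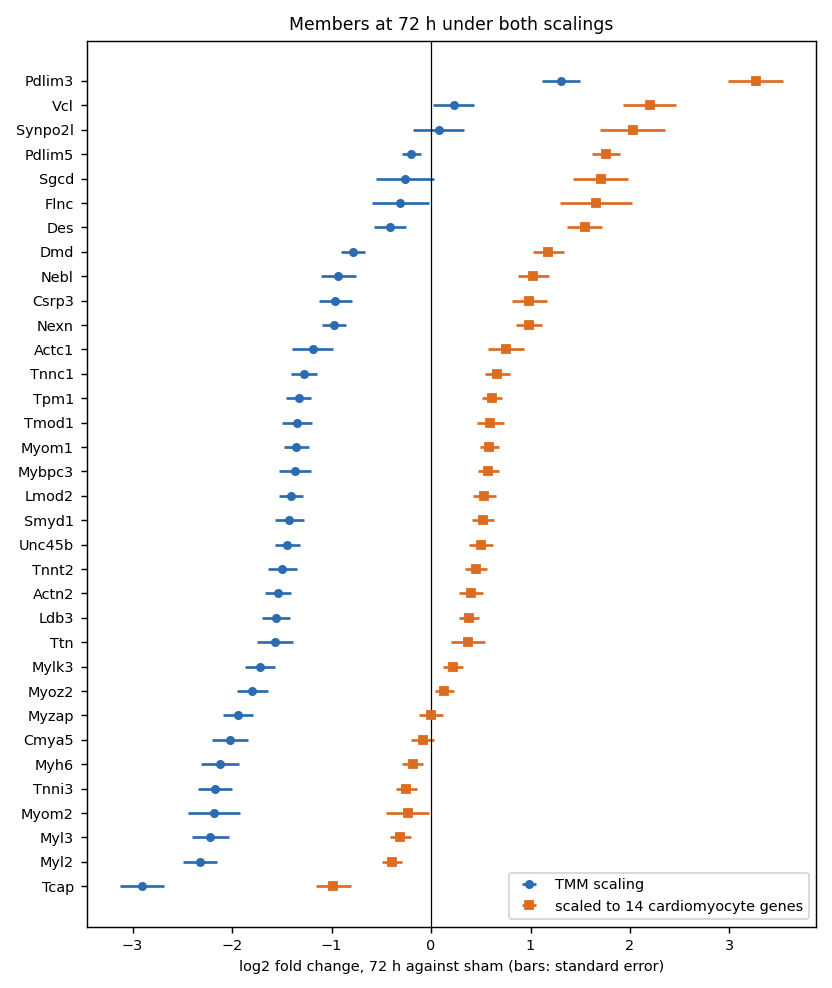
Log2 fold change at 72 h against sham for each of the 34 genes, with bars of 1 SE, after TMM scaling and after scaling to the summed counts of 14 cardiomyocyte genes. The first set of points lies below 0 for all but Pdlim3, Vcl and Synpo2l. The second is higher by about the fall of the reference genes, and Tcap remains at -0.98.

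Levels per kilobase of exon allow the genes to be compared with one another. In sham, Actc1 led with 6097 ± 486 CPM per kilobase, followed by Myl2 (4246 ± 233), Myh6 (3704 ± 158), Myl3 (2955 ± 127) and Tcap (2477 ± 157), each apart from the next in all 3 libraries. Tnnc1 (2142 ± 117) and Tnni3 (2109 ± 138) overlapped, as did Tpm1 (1323 ± 61.9) and Tnnt2 (1189.5 ± 112) below them. Titin, the longest of these transcripts, stood at 18.7 ± 1.36, Vcl at 7.24 ± 0.434, and Dmd (3.21 ± 0.233), Pdlim3 (2.99 ± 0.545) and Sgcd (1.60 ± 0.199) were lowest. At 72 h Actc1 still led, with 2670.5 ± 314 CPM per kilobase. Tnnc1 (886 ± 118), Myh6 (852 ± 143) and Myl2 (849 ± 174) followed with overlapping libraries. Des, rank 12 in sham at 455 ± 29.3, and Tcap, rank 5 in sham, stood next to each other at ranks 10 and 11 at 72 h, with 343 ± 25 and 331 ± 89.7, and overlapped. These levels rest on annotated exon length and do not allow for transcripts that differ in length.

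Ratios of the level per kilobase of 2 genes within a library do not depend on the scaling. The 12 ratios read were chosen after earlier values were known and are given as a description. With 3 libraries against 3, an exact permutation test cannot go below p = 0.1. Within the troponin complex, Tnni3 to Tnnc1 was 0.985 ± 0.039 (SD, n = 3) in sham, 0.886 ± 0.044 at 6 h, 0.667 ± 0.079 at 24 h and 0.524 ± 0.048 at 72 h. The highest 72 h library, 0.579, was below the lowest in sham, 0.947. Tnnt2 to Tnnc1 moved less, from 0.554 ± 0.023 to 0.477 ± 0.0065 at 72 h. For the ventricular light chains, Myl2 to Myl3 was 1.44 ± 0.020 in sham, then 1.17 ± 0.084 at 24 h and 1.37 ± 0.14 at 72 h, and the last group overlapped sham. Myosin heavy chain to actin, Myh6 to Actc1, was 0.610 ± 0.045 in sham, then 0.351 ± 0.073 at 24 h and 0.318 ± 0.016 at 72 h, with no overlap between sham and the later groups. Tcap to Ttn, the cap and its partner, was 133 ± 18 in sham, then 106 ± 8.3 at 24 h and 51.8 ± 7.2 at 72 h. At the Z-disc, Flnc to Actn2 was 0.0910 ± 0.0058 in sham, 0.435 ± 0.24 at 6 h, 0.393 ± 0.11 at 24 h and 0.217 ± 0.048 at 72 h. The ratio exceeded sham in all 72 h libraries. Csrp3 to Tcap was 0.193 ± 0.013 in sham, then 0.683 ± 0.053 at 24 h and 0.766 ± 0.15 at 72 h.

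Isoform genes of the foetal heart, the atrium and skeletal muscle, 11 of 12 of which could be tested, split in direction. At 72 h 5 were called, 3 higher and 2 lower (66.4% of all genes, 34.2% higher and 32.2% lower). On library totals 6 were higher and 2 lower (58.1% and 14.6% of all genes). Tnnt1, the slow troponin T, was lower (log2 fold change -1.94 ± 0.16 SE, adjusted p = 5.6e-09 by edgeR), and Tnnt3, the fast skeletal troponin T, was higher (log2 fold change 3.43 ± 0.42 SE, adjusted p = 8.2e-07 by edgeR). Its level rose from 0.607, 0.311 and 0.355 CPM in sham to 3.41, 6.06 and 4.39, values far below those of Tnnt2. The beta heavy chain gene Myh7 and the skeletal actin gene Acta1, markers of the foetal program chosen here after their values were seen, were called higher at 24 h (1.44 and 0.83) and not at 72 h (-0.60 and 0.14). Myh7 to Myh6 per kilobase was 0.00753 ± 0.00048 in sham, then 0.0474 ± 0.0076 at 24 h and 0.0224 ± 0.0061 at 72 h, and Acta1 to Actc1 was 0.0300 ± 0.0045, 0.0712 ± 0.014 and 0.0756 ± 0.0013. Both pairs are near-identical in sequence, so part of these reads may be assigned to the wrong member, and the ratios are uncertain for that reason.

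A further list of 40 sarcomere and Z-disc genes, 38 of them tested, was also mostly lower at 72 h, with a median log2 fold change of -1.13. At that time 36 were called, 4 higher and 32 lower (66.4% of all genes, 34.2% higher and 32.2% lower). On library totals 7 were higher and 24 lower (58.1% and 14.6% of all genes), with a median of -0.54. The calls numbered 21 at 6 h, 17 of them higher (28.4% of all genes, 16.3% higher), and 22 at 24 h, 13 of them higher (43.8%, 23.7% higher). Trim54, a muscle ubiquitin ligase of the sarcomere, was higher at 6 h (0.45) and lower at 72 h (log2 fold change -2.17 ± 0.15 SE, adjusted p = 1.3e-09 by edgeR). Sgca, the alpha subunit of the sarcoglycan complex to which Sgcd belongs, was lower at 24 h (-0.83) and 72 h (log2 fold change -2.00 ± 0.15 SE, adjusted p = 1.8e-09 by edgeR). The genes called higher at 72 h, named after their values were seen, were Myoz1 (2.34), Ankrd23 (1.03), Ankrd1 (0.86) and Xirp2 (0.63). Ankrd1, a titin-associated stress protein, stood at 796, 822 and 649 CPM in sham and 4471, 2092 and 4088 at 6 h. As for Flnc, its 6 h value was lowest in replicate 2.

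Most related genes, many of them broadly expressed outside muscle, went the other way. Of 27 such paralogs or partners, 25 were called at 72 h, 20 higher and 5 lower (66.4% of all genes, 34.2% higher and 32.2% lower). Their median log2 fold change was 0.91, beside -1.39 for the 34 genes. On library totals the count was 22 higher and 1 lower, where 58.1% of all genes were higher and 14.6% lower. Among filament proteins the values lay far apart. At 72 h the intermediate filament gene Vim was at 2.71 where Des was at -0.41, the alpha-actinin genes Actn1 and Actn4 were at 2.23 and 0.67 where Actn2 was at -1.54, and the actin genes Actb and Acta2 at 2.35 and 1.40 where Actc1 was at -1.19. The tropomyosin genes Tpm3 and Tpm4 were at 1.73 and 1.94 where Tpm1 was at -1.33, and the non-muscle heavy chain gene Myh9 at 1.49 where Myh6 was at -2.12. The light chain genes Myl6 and Myl9 were at 1.46 and 0.80 where Myl3 and Myl2 were at -2.22 and -2.32.

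Among adaptors, the LIM genes Csrp1 and Csrp2 were at 1.51 and 3.29 where Csrp3 was at -0.96. Csrp2 had the largest value of the 27. Lasp1 was at 1.56 where Nebl was at -0.93, Flna at 1.36 where Flnc was at -0.31, Pdlim7 at 1.06 where Pdlim5 was at -0.20, and Pdlim1 at 0.38 where Pdlim3 was at 1.31. Talin Tln1 was at 0.66 beside Vcl at 0.23, Sgce at 0.49 beside Sgcd at -0.26, Tmod3 at 0.31 beside Tmod1 at -1.35, and Unc45a at 0.12 beside Unc45b at -1.45. Unc45a was not called. The 5 lower were Utrn (-0.77, beside Dmd at -0.78), Mylk (-0.59, beside Mylk3 at -1.72), Smyd2 (-0.76, beside Smyd1 at -1.42), Lmod1 (-0.89, beside Lmod2 at -1.41) and Synpo2 (-1.01, beside Synpo2l at 0.08). Per kilobase, Vim to Des moved from 0.0798 ± 0.015 in sham to 0.690 ± 0.065 at 72 h, and Acta2 to Actc1 from 0.0111 ± 0.0015 to 0.0681 ± 0.017. At 6 h 12 of the 27 were already higher and 1 lower (16.3% and 12.2% of all genes), and at 24 h 17 and 4 (23.7% and 20.2%). Fibroblast, macrophage and neutrophil markers rose over the same times, as given above, and their part in these values was not tested.

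**Figure D5:**
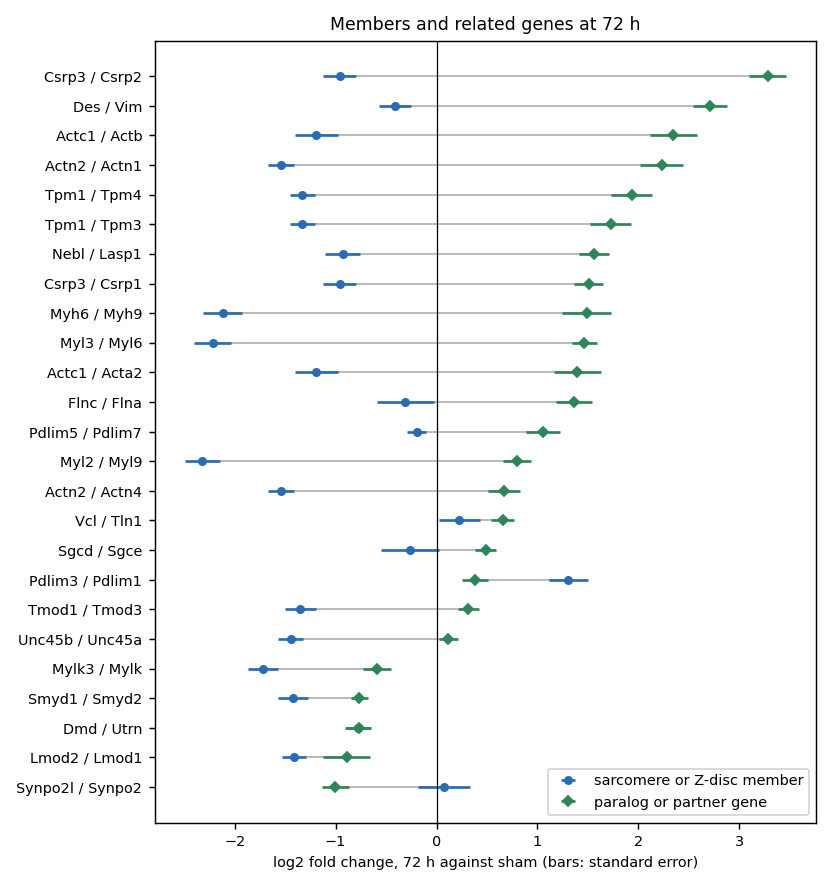
Log2 fold change at 72 h against sham, with bars of 1 SE, for each paralog or partner gene and the gene of the 34 it was paired with, in 25 pairs. Most paralogs, such as Csrp2, Vim and Actb, lie above 0 and the genes paired with them below, while Utrn, Mylk, Smyd2, Lmod1 and Synpo2 lie below 0.

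Genes of transcription factors that control sarcomere genes were mostly lower at 72 h. Of 13, all were called, 2 higher and 11 lower (66.4% of all genes, 34.2% higher and 32.2% lower), with a median log2 fold change of -0.60. Tbx5, a T-box factor of the heart, was at -0.51 at 24 h and was lower at 72 h (log2 fold change -1.90 ± 0.17 SE, adjusted p = 1.4e-08 by edgeR), and Mef2d, of the MEF2 family, was lower at 72 h (log2 fold change -0.94 ± 0.09 SE, adjusted p = 2.4e-08 by edgeR). The 2 that were higher were Mrtfa (1.35), a coactivator of serum response factor, and Tbx20 (0.38). On library totals 7 of the 13 were called, 3 higher and 4 lower (72.7% of all genes, 58.1% higher and 14.6% lower). The median was then -0.01, so the direction of the list as a whole depended on the scaling.

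Exons of other annotated genes overlap those of 12 of the 34 genes, 10 of them on the opposite strand, and whether the counting used strand is not given in the sources used here. The overlapping gene had few counts in most cases. The exceptions were Myl12a, with 69.4% of the mean count of Myom1, Ap3m1, with 43.8% of that of Vcl, and Tstd2, with 6.55% of that of Tmod1. Myl12a rose at 6 h (0.37) and fell at 72 h (-0.37), and Ap3m1 was at -0.16 at 6 h, when Vcl was called higher. Without strand, reads of each such pair cannot be told apart where their exons overlap. The overlaps were read from GENCODE M21, whose exon length equalled that implied by the deposited FPKM for 31 of the 34 genes. The others were Myh6, Ldb3 and Myom1, and for Myom1 the lengths were 10459 bases in M21 and 5672 by FPKM. Whether the overlap of Myom1 with Myl12a lay in the counted exons is therefore not known.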

How the data were processed

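Poly(A)-selected RNA was sequenced from 18 mice, 3 in each of 6 groups, after fragmentation, random hexamer priming and PCR, per the labels' protocols. Per the submitters' processing notes, cutadapt 1.18, HISAT2 2.1.0 and featureCounts were used with the mm10 build. The annotation release and the use of strand are not given in the sources used here. The authors deposited whole-number read counts for 30583 Ensembl genes. They also deposited FPKM values, in which the columns of replicates 2 and 3 at 6 h each hold the other's counts, so the numbering of the count columns was used. Symbols and coordinates are those of GENCODE M21 (GRCm38), which matched 30512 identifiers and left 71 without a match. Reads carry no molecular identifiers. The SDs given are over the 3 mice of a group, and the SEs come from the model fitted to all 18 libraries. Library totals were 18.2 to 25.1 M counts.

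The deposited counts were the input to edgeR 4.0.16 (R 4.3.3). filterByExpr removed 14272 genes, TMM factors scaled the libraries, and a quasi-likelihood model with 1 mean per group was fitted to 18 libraries (biological coefficient of variation 0.149). A gene was called at a Benjamini-Hochberg adjusted p under 0.05 over 16311 genes, two-sided, which is the edgeR adjusted p of the text. The relative scale replaced TMM factors by the summed counts of 14 cardiomyocyte genes. Alternatives were RLE factors, library totals, TMM over nuclear genes, no filter, at least 10 counts in every library, DESeq2 1.42.0, only the 6 libraries compared, limma 3.58.1 on log2(FPKM + 1) and log2(FPKM + 0.1), other reference genes, a replicate block, and leaving out each library. On simulated data for 72 h against sham (15880 genes), edgeR called 88% of 50 genes raised 2-fold and 82% of 50 halved. It made 6 false calls. Only 50 genes were changed at each fold size, as many raised as lowered, whereas 66.4% of all genes were called in the deposited 72 h libraries. The rate of calls and false calls with so many genes changed, or with a shift in scaling, was not tested.

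The members and the other gene lists were chosen with earlier results of these data known. Values per library were given for the lowest and highest log2 fold change at 72 h in each role group, for members called at 10 min or 1 h (there were none) or called higher at any time, and for members called in both directions. Other lists are represented by the 2 genes whose 72 h adjusted p was smallest, and the paralog list by its pairs, 2 of which are counted but not reported here. Genes named outside this rule (Myl4, Myh7, Acta1, Mrtfa, Tbx20, Slc8a1, Ankrd1, Myoz1, Ankrd23, Xirp2, Tstd2), and the values per library of Myh6, Actn2 and Sgcd, were chosen after their values were seen. Same-numbered replicates of different groups were checked for shared deviations: 10 of 45 pairs had a correlation above 0.1, so the numbers were not taken as pairs.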

Additional observations from a re-analysis of the deposited data

How the results depend on the processing

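Under RLE factors, library totals, TMM over nuclear genes, both other filters, DESeq2, the 6 libraries alone and limma on FPKM, the counts of the 34 genes called against sham kept within 1.5 times their reported value, with the exceptions that the fits to only the 6 libraries compared called 2 genes at 10 min and 1 at 1 h (0 reported). That fit also called 3 from 6 to 24 h (13 reported), and DESeq2 called 11 from 1 to 6 h (7 reported). The share of all genes called in these fits was not counted, and the cause was not tested. Directions reversed at 72 h for Pdlim5 (0.39 on library totals, 0.38 in limma with either pseudocount), Flnc (0.28, 0.27 and 0.27) and Des (0.18, 0.17 and 0.18). With a replicate block, 0, 0, 8, 27 and 29 genes were called against sham and 0, 7, 15 and 32 between consecutive times, 34 in the F test, and 7, 23 and 29 on the relative scale, so no count changed by over 1.5 times. Leaving out 1 library at a time gave, against sham, 0 to 0 genes at both early times, 6 to 11 genes at 6 h, 19 to 28 genes at 24 h and 28 to 30 genes at 72 h. Between consecutive times it gave 0 to 0 from 10 min to 1 h, 5 to 11 from 1 to 6 h (11 without 24 h replicate 3), 13 to 19 from 6 to 24 h and 29 to 33 from 24 to 72 h, and it gave 33 to 34 in the F test. On the relative scale the ranges were 3 to 9 at 6 h (3 without 6 h replicate 1, 4 without sham replicate 3), 19 to 23 at 24 h and 26 to 30 at 72 h. Of the TMM-scaled fold changes of single genes, 1480 stayed on their side of the threshold when a library was left out, 51 lost a call and 17 gained it. Under the other settings 781 stayed, 48 lost a call, 22 gained it and 9 reversed. On the relative scale 41 lost a call and 1003 stayed when a library was left out, and 4 lost it and 170 stayed under the other settings. Sgcd, with 195 to 613 counts per library, rests on the fewest counts per kilobase in sham of the 34 genes.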
